A study of Mus musculus with 15 samples.

Results

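The genes described here encode fibronectin (Fn1) and the matricellular proteins thrombospondin 1 to thrombospondin 4 (Thbs1, Thbs2, Thbs3 and Thbs4), tenascin-C (Tnc), periostin (Postn) and SPARC (Sparc). They were chosen by name, as the rows of the deposited gene table whose mouse identifier carries those symbols, and all 8 were found among 55471 genes. RNA-seq of poly(A)-enriched RNA was available for 15 mouse libraries in 2 experiments of a study on YAP1, the fusion oncoprotein EWS::FLI1 and IGF-1 in bone mesenchymal stem cells. Experiment 1 held 4 EFPrx1 libraries (genotype label EFPrx1MSCLC, title numbers 219, 221, 225 and 229) and 3 WT libraries (genotype label MSC, title numbers 202, 234 and 237). Experiment 2 held 4 libraries of the genotype label hr, 2 of ha and 2 of EF, which the design text calls hr-EFPrx1, ha-EFPrx1 and EFPrx1 cells. All titles of experiment 2 carry the number 221, those of hr add Combi and uns, and those of ha add Combi and T. The cell type label MSCLCs is shared by all 15 libraries. The sources used here do not give what hr, ha, Combi and uns stand for, which driver or allele carries the fusion, how the cells were cultured or the age of the animals. Nor do the labels name the culture or animal behind a library, and the p-values below therefore cover only variation among these libraries, which could be technical.

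Matricellular proteins are secreted into the extracellular matrix, where they act on cell adhesion, growth factor availability and matrix assembly more than as load-bearing scaffold. Fibronectin is the adhesive glycoprotein that cells pull into fibrils through integrins, and many other matrix proteins are laid down on these fibrils. Thrombospondins bind integrins, CD36 and CD47, tenascin-C counters adhesion to fibronectin, periostin links integrins to collagen and tenascin-C, and SPARC binds collagen. Bone marrow and periosteal stromal cells are known sources of several of them, and periostin takes its name from the periosteum.

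The 8 genes together held 1.66 to 3.92% of all counts in EFPrx1 libraries against 1.10 to 2.85% in WT libraries, and 0.776 to 1.34% in hr and 2.63 to 2.75% in ha libraries against 1.15 to 1.16% in EF libraries. Library totals ran between 14906180 and 26833876 counts in experiment 1 and between 11195371 and 16378368 counts in experiment 2. Flowcell and experiment cannot be told apart, and groups were tested only within an experiment. Several libraries of experiment 2 were nearly alike. The squared difference between both EF libraries had a median over genes of 1.35 times sampling noise, and hr libraries with the same first number (1-1 and 1-2, or 2-1 and 2-2) differed by 1.31 and 1.30 times sampling noise. By the same measure hr libraries of different first numbers differed by 14.1 to 15.5 times sampling noise, the ha libraries by 18.8 times and libraries of experiment 1 by 6.92 to 95.0 times. The labels do not say what the first hr number marks, and the 2 sets are called hr 1 and hr 2 below.

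Mesenchymal markers, 11 genes such as Prrx1, Pdgfra and Col1a1, summed to 4473 to 11386 CPM in EFPrx1 libraries and 14351 to 18262 CPM in WT libraries. All marker sums are in CPM of the library total. Other CPM are read counts scaled to the library total after TMM normalisation, unless named as CPM of the library total. TMM evens out differences in library composition. In experiment 2 the same sum was 11328 to 13718 CPM in hr, 18508 to 19036 CPM in ha and 12906 to 12966 CPM in EF libraries, and no mesenchymal marker was at 0 in any group. Col1a1 and Col1a2, both on this list, averaged 771 and 1396 TMM-normalised CPM in EFPrx1 and 5518 and 7307 in WT. In experiment 2 they averaged 2941 and 3807 in hr, 4407 and 8767 in ha and 3557 and 3657 in EF. The sums therefore do not show whether the other markers differed in the same direction. The 16 hematopoietic markers, among them Ptprc, Lyz2 and Csf1r, summed to 55.8 to 538 CPM in EFPrx1 libraries and 11837 to 31821 CPM in WT libraries, with none at 0 in either group. They summed to 8.33 to 9.71 CPM in hr (6 of 16 at 0), 16.6 to 37.1 CPM in ha (9 of 16 at 0, Ptprc among them) and 9.56 to 9.92 CPM in EF libraries (8 of 16 at 0). In these bulk libraries, fewer cells of a type and less RNA per cell cannot be told apart.

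In EFPrx1 cells Thbs1 was higher than in WT cells, while Thbs2, Thbs4 and Sparc were lower, and Fn1, Thbs3, Tnc and Postn did not pass the test. Thus 1 of the 8 genes rose and 3 fell, beside 7.7% of 14596 tested genes called higher and 12.1% called lower (19.8% in either direction). A call is an adjusted p under 0.05 in edgeR's quasi-likelihood test, adjusted over all genes tested. With library totals in place of TMM scaling the share of called genes that were higher was 58.8%, against 38.9% with TMM, and the same number of member genes was called. The median difference of the 8 genes was -1.36 on the log2 scale, against 0.04 over all genes tested.

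**Figure D1:**
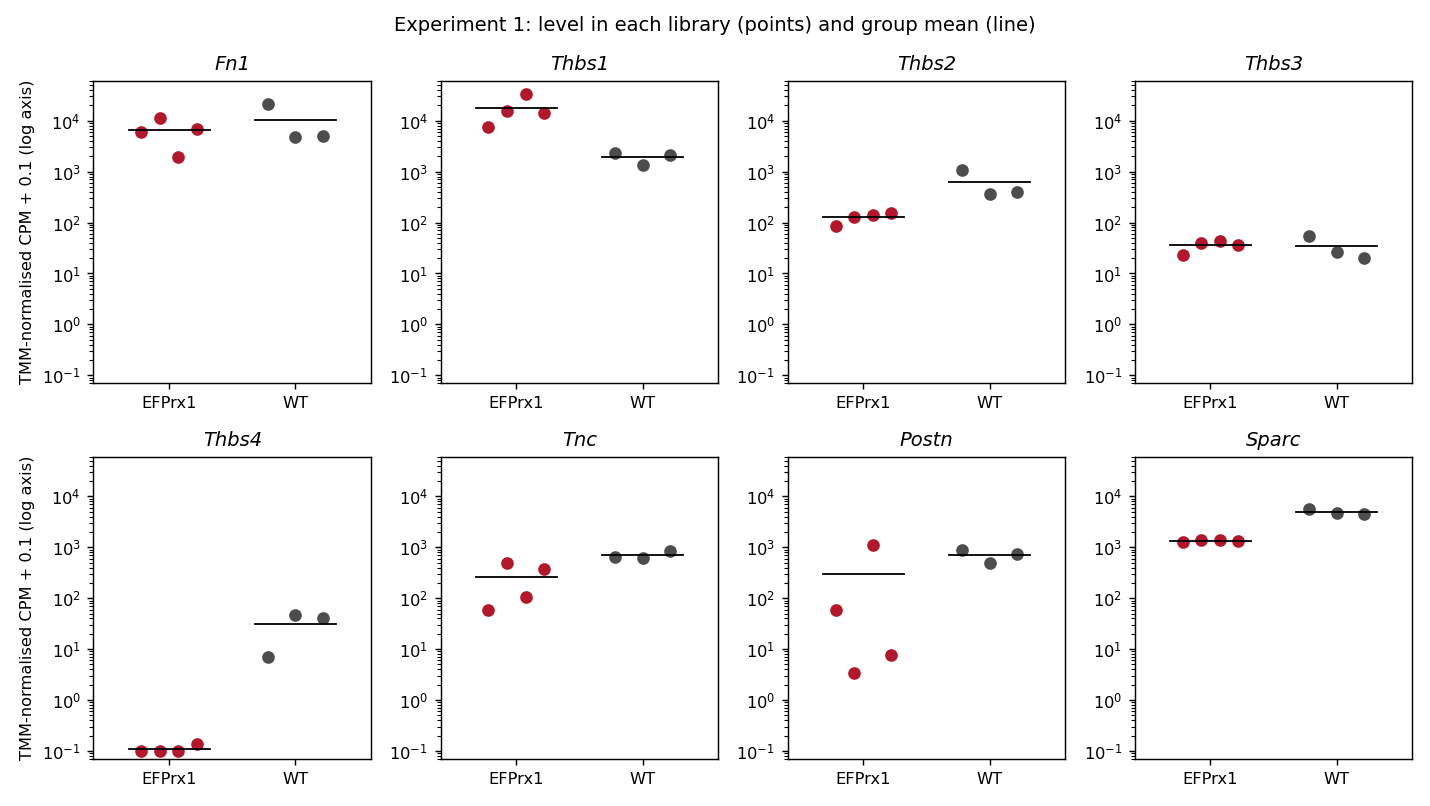
Levels of the 8 genes in experiment 1, as TMM-normalised CPM + 0.1 on a log axis, with a point for each of 4 EFPrx1 libraries at left and 3 WT libraries at right, and a bar at the group mean. All 4 EFPrx1 libraries lie above all WT libraries for Thbs1 and below them for Thbs2, Thbs4, Tnc and Sparc, and EFPrx1 225 stands apart for Postn at 1109.6 CPM. Tnc did not pass the test, and the share of all tested genes whose groups lie apart was not counted.

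Thrombospondin 1 is a trimeric protein released by platelets and stromal cells that can activate latent TGF-beta and restrains blood vessel growth. Thbs1 (ENSMUSG00000040152, GRCm38 chromosome 2, 118111876 to 118127133, plus strand) stood at 7417, 15247, 33630.0 and 14006 CPM in EFPrx1 219, 221, 225 and 229, against 2270.0, 1374 and 2095 CPM in WT 202, 234 and 237. The lowest EFPrx1 library was thus above the highest WT library, and within EFPrx1 library 225 was highest and 219 lowest. By counts, not scaled to gene length, Thbs1 was at rank 2 in each of the 4 EFPrx1 libraries. It held 0.833 to 3.44% of all counts there. In WT libraries its rank was 44, 109 and 48 and its share 0.122 to 0.203%. The difference was 3.20 ± 0.62 on the log2 scale (SE, 9.19-fold, edgeR adjusted p = 0.0127). The call was lost without WT 234 (3.01, edgeR adjusted p = 0.0587) and without WT 237 (3.27, edgeR adjusted p = 0.0592), and the fold was smaller without EFPrx1 225 (2.60, edgeR adjusted p = 0.0107). The 6 markers of platelets, a known source of thrombospondin 1, summed to 5.82 to 6.95 CPM in EFPrx1 and 44.8 to 54.8 CPM in WT libraries.

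Thrombospondin 2, the close relative of thrombospondin 1 in structure, lacks its TGF-beta activating sequence and is made by fibroblasts and marrow stromal cells. Thbs2 (ENSMUSG00000023885, GRCm38 chromosome 17, 14665500 to 14694235, minus strand) stood at 87.0, 131, 139 and 155 CPM in EFPrx1 219, 221, 225 and 229, against 1094, 368 and 401 CPM in WT 202, 234 and 237. The groups did not overlap, and WT 202 was well above the other WT libraries. Thbs2 fell by 2.28 ± 0.45 on the log2 scale (SE, edgeR adjusted p = 0.0142), and by 1.58 without WT 202 (edgeR adjusted p = 0.00833). The sister genes Thbs1 and Thbs2 therefore moved in opposite directions between the same libraries.

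Thrombospondin 3 and thrombospondin 4 belong to the pentameric branch of the family, and thrombospondin 4 is known from tendon and muscle matrix. Thbs3 (ENSMUSG00000028047, GRCm38 chromosome 3, 89215180 to 89226837, plus strand) stood at 23.2, 40.1, 43.1 and 35.9 CPM in EFPrx1 219, 221, 225 and 229, against 55.5, 26.3 and 19.7 CPM in WT 202, 234 and 237. The groups overlapped, and the difference of 0.07 ± 0.40 (SE, 95% confidence interval -0.86 to 1.00, edgeR adjusted p = 0.915) did not pass. Thbs3 shares 6.59% of its exon bases with Mtx1 on the opposite strand. Mtx1 stood at 18.0 to 46.0 CPM of the library total over the 15 libraries, and no source used here says whether counting used the strand. Thbs4 (ENSMUSG00000021702, GRCm38 chromosome 13, 92751590 to 92794818, minus strand) had 0, 0, 0 and 1 counts in EFPrx1 219, 221, 225 and 229, against 157, 620 and 571 counts in WT 202, 234 and 237. The gene was thus at or near 0 in the EFPrx1 libraries and present in each WT library, at 7.06, 46.9 and 41.2 CPM. Thbs4 fell (edgeR adjusted p = 0.00158), and the ratio of EFPrx1 to WT counts per total lay between 1.31e-05 and 0.00288 (95% binomial interval on summed counts, counting error only). The tendon marker Tnmd was at 0 in EFPrx1 libraries, and the 3 tenocyte markers summed to 18.0 to 29.1 CPM in EFPrx1 and 8.33 to 22.5 CPM in WT libraries.

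Fibronectin, the scaffold on which other matrix proteins assemble, varied widely within both groups. Fn1 (ENSMUSG00000026193, GRCm38 chromosome 1, 71585520 to 71653200, minus strand) stood at 5882, 11094, 1941 and 6996 CPM in EFPrx1 219, 221, 225 and 229, against 21387, 4680.0 and 5096 CPM in WT 202, 234 and 237. In WT 202 it had the most counts of any gene (rank 1, not scaled to gene length). The EFPrx1 range enclosed the other WT libraries. The difference of -0.68 ± 0.74 (SE, 95% confidence interval -2.40 to 1.04, edgeR adjusted p = 0.533) did not pass, and without WT 202 its sign turned to 0.41 (edgeR adjusted p = 0.648).

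Tenascin-C is a large oligomeric protein expressed in embryonic mesenchyme, healing wounds and tumour stroma. Tnc (ENSMUSG00000028364, GRCm38 chromosome 4, 63959785 to 64047015, minus strand) stood at 59.9, 486, 106 and 377 CPM in EFPrx1 219, 221, 225 and 229, against 642, 615 and 837 CPM in WT 202, 234 and 237. All EFPrx1 libraries lay below all WT libraries, but they ranged widely among themselves. The difference of -1.44 ± 0.69 (SE, 95% confidence interval -3.04 to 0.16, edgeR adjusted p = 0.174) did not pass.

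Periostin binds integrins on mesenchymal cells and promotes collagen cross-linking. Postn (ENSMUSG00000027750, GRCm38 chromosome 3, 54361109 to 54391037, plus strand) stood at 58.5, 3.26, 1109.6 and 7.58 CPM in EFPrx1 219, 221, 225 and 229, against 891, 496 and 748 CPM in WT 202, 234 and 237. EFPrx1 219, 221 and 229 were below every WT library, while EFPrx1 225 was above them all. Over the 4 EFPrx1 libraries the difference was -1.27 ± 1.65 (SE, 95% confidence interval -5.10 to 2.56, edgeR adjusted p = 0.606). Without EFPrx1 225 it was -4.99 and passed (edgeR adjusted p = 0.0297), so the outcome for this gene rests on a single library.

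SPARC, also called osteonectin, is among the most abundant non-collagen proteins of bone matrix. Sparc (ENSMUSG00000018593, GRCm38 chromosome 11, 55394500 to 55423183, minus strand) stood at 1254, 1361, 1370.1 and 1348 CPM in EFPrx1 219, 221, 225 and 229, against 5522, 4791 and 4488 CPM in WT 202, 234 and 237. The groups were far apart and each was tight. Sparc averaged 1333 ± 53.5 CPM in EFPrx1 (SD, n = 4) and 4934 ± 531 CPM in WT (SD, n = 3), and it fell by 1.89 ± 0.28 on the log2 scale (SE, edgeR adjusted p = 0.00527). The decrease passed in each alternative fit run, with log2 values between -1.98 and -1.63. The sums of hematopoietic, platelet and mesenchymal markers (above) also did not overlap between these groups. Nor did those of 4 osteoblast markers, at 31.7 to 64.8 CPM in EFPrx1 and 10.6 to 17.9 CPM in WT libraries. The 8 epithelial markers summed to 0.131 to 7.72 CPM in EFPrx1 and 16.4 to 35.0 CPM in WT libraries. Mitochondrial genes held 4.06 to 8.43% of counts in EFPrx1 against 1.63 to 3.52% in WT libraries. The part of these markers and of mitochondrial genes in the differences of experiment 1 was not tested.

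In experiment 2 the ha libraries stood apart from the EF libraries in Postn, Tnc, Thbs1 and Thbs2, which were all higher in ha. Of the 7 genes tested, 4 rose and 0 fell, beside 23.0% of 13998 tested genes called higher and 19.6% called lower (42.6% in either direction). At an unadjusted p under 0.05 there were 5 of the 7, beside 7188 of the 13998 genes tested. The median difference of the 7 genes was 2.35 on the log2 scale, against 0.05 over all genes tested. Thbs4 was not tested in experiment 2, since it had 2, 0 and 1 counts in all hr, ha and EF libraries together.

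Promoter windows of the genes that rose in ha and fell in hr against ha are shown for Postn, Tnc and Thbs2, which moved together with Thbs1 in experiment 2. RefSeq windows on GRCm38.p6 run from 250 bases before to 50 bases after a gene's start, and 6 of the 8 genes had at least 1 (not Fn1 and Thbs1). Postn and Tnc each had 2, of which 1 is printed. For motifs, 4 were searched on both strands of each. The TEAD motif, GGAATG, is bound by the partners of YAP1. The AP-1 motif was written as TGANTCA and the TATA box as TATAA. The last was a pair of GGAA repeats (GGAAGGAA), which EWS::FLI1 is known to bind in longer runs in human cells. Capitals mark the matches. The first sequence is chr3:54360857-54361156 on the plus strand, the next chr4:64046887-64047186 and the last chr17:14694213-14694512, both on the minus strand.
Postn: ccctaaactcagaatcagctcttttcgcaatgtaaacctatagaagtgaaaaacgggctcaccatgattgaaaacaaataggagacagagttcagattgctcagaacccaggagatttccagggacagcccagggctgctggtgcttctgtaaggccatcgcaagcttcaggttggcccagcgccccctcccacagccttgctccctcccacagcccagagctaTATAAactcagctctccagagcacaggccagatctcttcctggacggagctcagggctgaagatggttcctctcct
Tnc: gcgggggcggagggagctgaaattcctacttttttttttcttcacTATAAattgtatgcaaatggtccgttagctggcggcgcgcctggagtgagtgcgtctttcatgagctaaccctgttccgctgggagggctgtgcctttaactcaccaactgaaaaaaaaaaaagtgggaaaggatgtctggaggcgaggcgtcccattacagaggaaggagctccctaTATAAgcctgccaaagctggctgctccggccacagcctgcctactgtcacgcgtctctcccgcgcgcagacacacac
Thbs2: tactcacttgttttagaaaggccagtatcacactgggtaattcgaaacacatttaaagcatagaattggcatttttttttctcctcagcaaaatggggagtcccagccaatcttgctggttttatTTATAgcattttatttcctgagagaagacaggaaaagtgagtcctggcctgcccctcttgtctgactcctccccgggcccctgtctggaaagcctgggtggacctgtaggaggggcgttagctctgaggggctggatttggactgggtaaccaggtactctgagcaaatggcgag
The printed windows of Postn and Tnc each held the TATA box close to their RefSeq start, at bases -26 to -22 and -27 to -23, and that of Tnc held another at -205 to -201. The printed Tnc start lies 79 bases from the gene's outer start in the GENCODE annotation. The Tnc window at that outer start, not printed, held the TATA box only at -126 to -122. The Postn window not printed held none of the 4 motifs. Thbs2 held it on the opposite strand at -125 to -121. In the 3 printed windows no TEAD motif, AP-1 motif or pair of GGAA repeats was found. Of all 32851 windows of this length, 24.9% held the TATA box, 14.7% the TEAD motif, 7.81% the AP-1 motif and 3.79% the pair of GGAA repeats. Of the other matched genes, Thbs4 held the TEAD motif at 2 places on the opposite strand, overlapping by a base, and the windows of Thbs3 and Sparc held none of the 4 motifs. The Sparc window lies at a RefSeq start 3103 bases from the gene's outer start in the GENCODE annotation, inside the span given above.

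**Figure D2:**
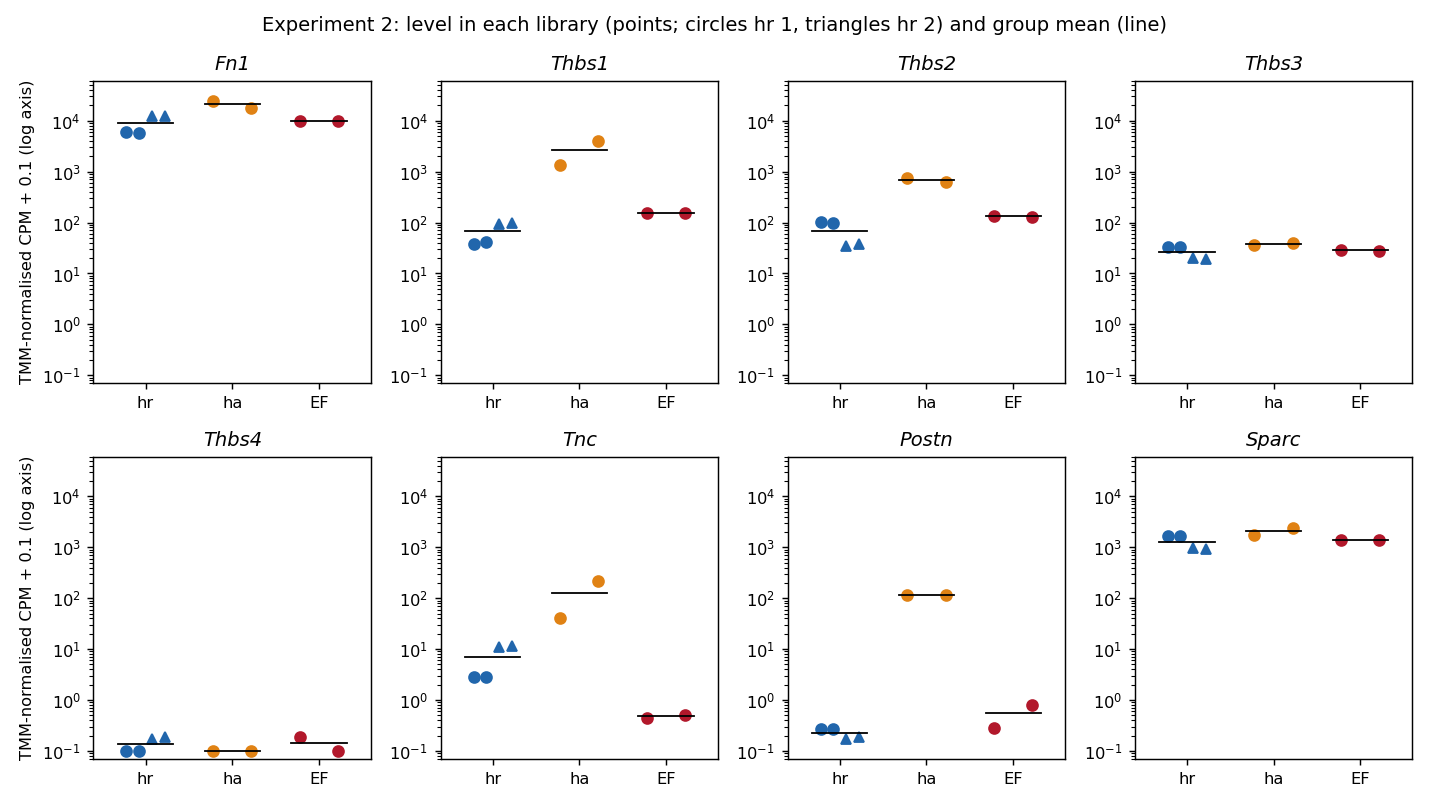
Levels of the 8 genes in experiment 2, as TMM-normalised CPM + 0.1 on a log axis, with a point for each of 4 hr, 2 ha and 2 EF libraries, and a bar at the group mean. Both ha libraries lie above every hr and EF library for Fn1, Thbs1, Thbs2, Thbs3, Tnc, Postn and Sparc, and the hr libraries fall into 2 pairs (hr 1 as circles, hr 2 as triangles). Of these genes, Fn1, Thbs3 and Sparc did not pass in ha against EF. The share of all tested genes set apart in this way was not counted.

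Postn, whose TATA-bearing promoter opens the set above, stood at 115 and 118 CPM in ha 1 and 2, against 0.177 and 0.719 CPM in EF 1 and 2. The ha libraries were alike, and EF held 11 counts over both libraries. The increase was called (edgeR adjusted p = 2.69e-05), with a ratio of counts per total between 140 and 505 (95% binomial interval on summed counts). The log2 difference was 7.95 ± 0.36 (SE), 7.31 without EF 1 and 9.27 without EF 2.

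Tnc stood at 41.3 and 216 CPM in ha 1 and 2, against 0.355 and 0.399 CPM in EF 1 and 2, where it had 4 and 5 counts. Both ha libraries were far above EF, and ha 2 was well above ha 1. The increase was called (edgeR adjusted p = 0.00267), with a ratio of counts per total between 192 and 797. The log2 difference of 8.38 ± 1.35 (SE) was 6.73 without ha 2 and 9.11 without ha 1, and in limma-voom the adjusted p was 0.0514.

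Thbs1 stood at 1369 and 4011 CPM in ha 1 and 2, against 156 and 154 CPM in EF 1 and 2. Again ha 2 was the higher of the ha libraries, and the groups were far apart. Thbs1 rose by 4.12 ± 0.68 on the log2 scale (SE, 17.3-fold, edgeR adjusted p = 0.00296), and by 3.14 without ha 2. Thbs2 stood at 736 and 619 CPM in ha 1 and 2, against 136 and 129 CPM in EF 1 and 2, with the order of the ha libraries turned round. It rose by 2.35 ± 0.56 on the log2 scale (SE, 5.11-fold, edgeR adjusted p = 0.0124), but the call was lost without EF 1 (edgeR adjusted p = 0.0766), without EF 2 (edgeR adjusted p = 0.0827) and with no filter on low counts (edgeR adjusted p = 0.0735). The sister genes thus rose together here.

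Fn1 stood at 24707 and 18028 CPM in ha 1 and 2, against 9763 and 9899 CPM in EF 1 and 2. It had the most counts of any gene in all 4 libraries, not scaled to gene length. Although both ha libraries were higher, the difference of 1.12 ± 0.43 (SE, 95% confidence interval 0.12 to 2.12, edgeR adjusted p = 0.0694) did not pass. It passed in DESeq2 (adjusted p = 0.0179) and when ha and EF were fitted without hr (edgeR adjusted p = 0.0227).

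Sparc stood at 1762 and 2356 CPM in ha 1 and 2, against 1379.5 and 1403 CPM in EF 1 and 2, a difference of 0.57 ± 0.32 that did not pass (SE, 95% confidence interval -0.19 to 1.32, edgeR adjusted p = 0.194). Thbs3 stood at 36.4 and 40.1 CPM in ha 1 and 2, against 28.8 and 28.0 CPM in EF 1 and 2, a difference of 0.43 ± 0.29 that did not pass (SE, 95% confidence interval -0.25 to 1.11, edgeR adjusted p = 0.273). For both genes the groups did not overlap, but the share of all tested genes whose groups lie apart was not counted. The EF libraries were also near-identical. Fitted without hr, Thbs3 passed (edgeR adjusted p = 0.0497).

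Since the EF libraries were nearly alike and so were the hr libraries of a first number, they were also summed before fitting, which left 1 EF, 2 hr and 2 ha libraries. Then 1 of these 7 genes was called in ha against EF (Postn, edgeR adjusted p = 0.0108), and Thbs1, Thbs2 and Tnc had edgeR adjusted p = 0.0689, 0.0993 and 0.0646. Such a fit assumes that the lone EF library varies like the other groups. Smooth muscle markers, 5 genes such as Acta2 and Myh11, summed to 255 to 604 CPM in ha and 70.4 to 75.2 CPM in EF libraries. The 8 epithelial markers summed to 0.611 to 0.979 CPM in ha (4 of 8 at 0, Epcam among them) and 13.02 to 14.65 CPM in EF libraries (3 of 8 at 0, Epcam among them). The part of both lists in the result was not tested.

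Between hr and EF cells no member passed in edgeR, which called 0 of the 7 tested genes, beside 6.95% of 13998 tested genes (3.88% higher and 3.07% lower). At an unadjusted p under 0.05 edgeR gave 3 of the 7 (Thbs1, Tnc and Postn), beside 3641 of the 13998 genes tested, and DESeq2 called 1 (Tnc) and limma-voom 0. The median difference of the 7 genes was -0.11 on the log2 scale, against 0.01 over all genes tested. The hr 1 and hr 2 libraries lay on opposite sides of EF for Fn1, Thbs3 and Sparc.

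Fn1 stood at 5879 and 5848 CPM in hr 1-1 and 1-2 and at 12483 and 12478 CPM in hr 2-1 and 2-2, against 9763 and 9899 CPM in EF. The hr 1 libraries were below both EF libraries and the hr 2 libraries above them. The difference over all hr libraries was -0.10 ± 0.37 (SE, 95% confidence interval -0.95 to 0.75, edgeR adjusted p = 0.897). With hr 1 alone it was -0.75 (edgeR adjusted p = 0.0459) and with hr 2 alone 0.37 (edgeR adjusted p = 0.218), fits that were added after the data were seen. Each set a near-identical hr pair against the near-identical EF pair.

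Sparc showed the opposite order, with 1632 and 1644 CPM in hr 1-1 and 1-2 and 954 and 941 CPM in hr 2-1 and 2-2, against 1379.5 and 1403 CPM in EF. Its difference was -0.11 ± 0.28 (SE, edgeR adjusted p = 0.852), with 0.23 for hr 1 alone. Thbs3 followed the order of Sparc, at 33.1 and 33.5 CPM in hr 1-1 and 1-2 and 20.3 and 18.7 CPM in hr 2-1 and 2-2, against 28.8 and 28.0 CPM in EF. Its difference was -0.11 ± 0.25 (SE, edgeR adjusted p = 0.835), with 0.22 for hr 1 alone and -0.51 for hr 2 alone (edgeR adjusted p = 0.0305). The fits of hr 1 or hr 2 alone were added after the data were seen and set near-identical pairs against each other.

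Thbs1 and Thbs2 were below EF in every hr library. Thbs1 stood at 37.9 and 42.2 CPM in hr 1-1 and 1-2 and 93.6 and 99.7 CPM in hr 2-1 and 2-2, against 156 and 154 CPM in EF, a difference of -1.18 ± 0.51 (SE, edgeR adjusted p = 0.192). Thbs2 stood at 102 and 99.9 CPM in hr 1-1 and 1-2 and 34.5 and 37.0 CPM in hr 2-1 and 2-2, against 136 and 129 CPM in EF, a difference of -0.96 ± 0.45 (SE, edgeR adjusted p = 0.226). Thbs1 was lower in hr 1 than in hr 2, while Thbs2 was lower in hr 2, where it passed on its own (-1.86, edgeR adjusted p = 0.00316). That fit was added after the data were seen, and its hr 2 and EF libraries were near-identical pairs.

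Tnc stood at 2.78 and 2.72 CPM in hr 1-1 and 1-2 and 10.9 and 11.4 CPM in hr 2-1 and 2-2, against 0.355 and 0.399 CPM in EF. Every hr library was above EF, and hr 2 had 4.05-fold the level of hr 1. The difference of 4.17 ± 1.33 (SE, 95% confidence interval 1.09 to 7.25, edgeR adjusted p = 0.0983) did not pass over all hr libraries. It passed in DESeq2 (adjusted p = 0.00142) and when hr and EF were fitted without ha (edgeR adjusted p = 0.0407). Postn had 2, 2, 1 and 1 counts in hr 1-1, 1-2, 2-1 and 2-2, against 2 and 9 counts in EF 1 and 2, so the gene was close to 0 in both groups. The ratio of counts per total lay between 0.0805 and 0.782 (95% binomial interval on summed counts), and the test did not pass (edgeR adjusted p = 0.102). Thbs4 had 0, 0, 1 and 1 counts in hr, 0 in ha and 1 and 0 counts in EF, which is too little for a comparison.

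In hr cells Postn, Thbs1, Thbs2, Tnc and Fn1 were lower than in ha cells, and of the 7 tested genes 0 rose and 5 fell, beside 17.9% of 13998 tested genes called higher and 21.5% called lower (39.4% in either direction). The median difference of the 7 genes was -3.31 on the log2 scale, against -0.00 over all genes tested. This contrast shares the hr and ha libraries with the comparisons above.

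Postn averaged 0.125 ± 0.0521 CPM in hr (SD, n = 4) and 116 ± 2.09 CPM in ha (SD, n = 2). It fell (edgeR adjusted p = 4.48e-06), with a ratio of counts per total between 0.000387 and 0.0023. Thbs1 averaged 68.4 ± 32.8 CPM in hr and 2689.8 ± 1868 CPM in ha (SD), and it fell by 5.30 ± 0.54 on the log2 scale (SE, edgeR adjusted p = 0.000424). Thbs2 averaged 68.3 ± 37.6 CPM in hr and 678 ± 83.0 CPM in ha (SD), and it fell by 3.31 ± 0.45 (SE, edgeR adjusted p = 0.00138). For these 3 genes the highest hr library was below the lowest ha library and all 3 were still called with near-identical libraries summed (edgeR adjusted p at most 0.0271).

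Tnc averaged 6.95 ± 4.85 CPM in hr and 129 ± 124 CPM in ha (SD), and it fell by 4.20 ± 0.74 (SE, edgeR adjusted p = 0.00412). Its size hung on the ha libraries, at -2.57 without ha 2 and -4.94 without ha 1, and the call was lost with near-identical libraries summed (edgeR adjusted p = 0.0688). Fn1 averaged 9172 ± 3820.0 CPM in hr and 21367 ± 4722 CPM in ha (SD), and it fell by 1.22 ± 0.36 (SE, edgeR adjusted p = 0.0295). The Fn1 call was lost without ha 1 (-0.97, edgeR adjusted p = 0.150), without ha 2 (edgeR adjusted p = 0.0534), with no filter on low counts (edgeR adjusted p = 0.0899), when hr and ha were fitted without EF (edgeR adjusted p = 0.0539) and with near-identical libraries summed (edgeR adjusted p = 0.162).

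Sparc averaged 1293 ± 399 CPM in hr and 2059 ± 420.4 CPM in ha (SD), a difference of -0.67 ± 0.27 that did not pass (SE, 95% confidence interval -1.31 to -0.04, edgeR adjusted p = 0.0865). Thbs3 averaged 26.4 ± 7.95 CPM in hr and 38.3 ± 2.62 CPM in ha (SD), a difference of -0.54 ± 0.25 that did not pass either (SE, 95% confidence interval -1.12 to 0.04, edgeR adjusted p = 0.123). With hr 2 alone both passed, Sparc at -1.09 (edgeR adjusted p = 0.00346) and Thbs3 at -0.94 (edgeR adjusted p = 0.00148). That fit was added after the data were seen, and the hr 2 libraries in it were near-identical. Smooth muscle markers summed to 36.0 to 95.8 CPM in hr and 255 to 604 CPM in ha libraries, and epithelial markers to 31.9 to 39.0 CPM in hr and 0.611 to 0.979 CPM in ha libraries. Their part in the result was not tested.

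**Figure D3:**
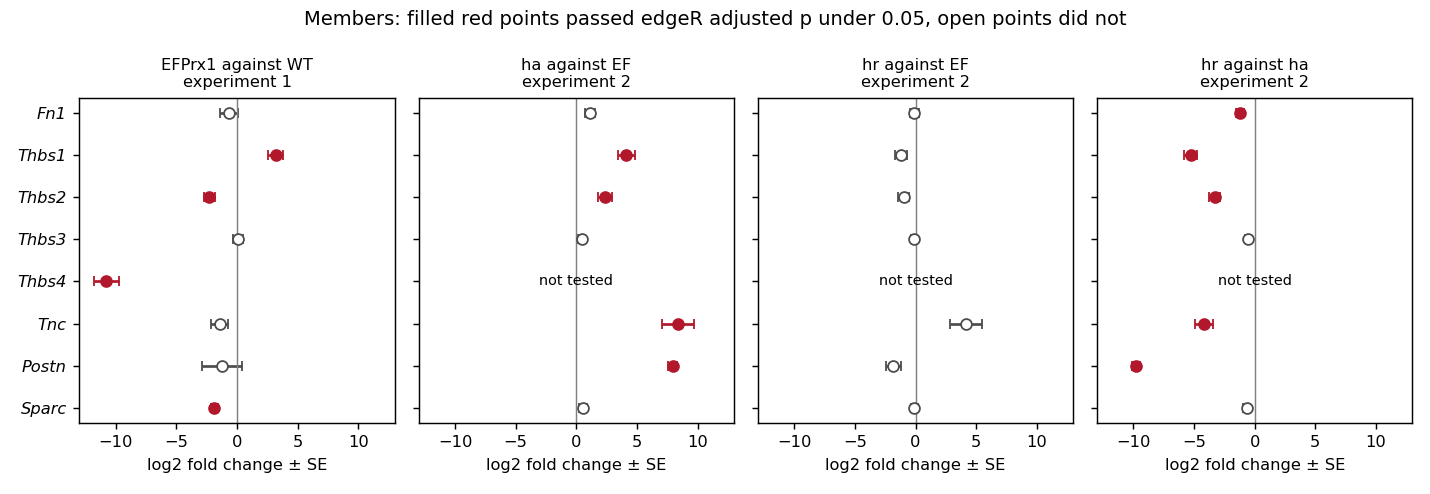
Log2 fold changes of the 8 genes in the 4 comparisons, with standard errors from edgeR as bars, filled in red where the adjusted p is under 0.05. Thbs1 lies at 3.20 in EFPrx1 against WT and 4.12 in ha against EF. In the latter, EF (EFPrx1 cells in the design text) is the group with less Thbs1. Postn, Tnc, Thbs1 and Thbs2 lie far above 0 in ha against EF and far below 0 in hr against ha.

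Levels were set against each other between genes only per kilobase of exon, as CPM of the library total. In EFPrx1 libraries Thbs1 was first, at 3061 ± 1834 CPM per kb (SD, n = 4), ahead of Fn1 at 603 ± 354 and Sparc at 379 ± 9.65 CPM per kb. In WT libraries Sparc was first, at 1175 ± 113 CPM per kb (SD, n = 3), followed by Fn1 at 799 ± 727 and Thbs1 at 285 ± 73.8 CPM per kb. Fn1 and Sparc did not differ beyond the spread of Fn1 in either group. Below them, Tnc, Postn and Thbs2 stood at 35.7 ± 29.0, 34.8 ± 63.8 and 19.6 ± 4.09 CPM per kb in EFPrx1, and Tnc, Thbs2 and Postn at 81.3 ± 16.4, 79.8 ± 52.0 and 74.0 ± 21.3 CPM per kb in WT, close enough that neither order is set.

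In experiment 2 Fn1 was first in every group, at 781 ± 316 CPM per kb in hr, 1810.0 ± 299 in ha and 842 ± 0.871 in EF (SD). Sparc followed, at 342 ± 110.0 CPM per kb in hr, 545 ± 141 in ha and 368 ± 1.16 in EF. Thbs1 was the third in each group, at 11.2 ± 5.24 CPM per kb in hr, 450 ± 331 in ha and 25.6 ± 0.404 in EF. In ha its spread reached that of Sparc, and in hr it reached that of Thbs2, at 9.81 ± 5.50 CPM per kb. Thbs3 stood at 5.49 ± 1.72 CPM per kb in hr, 7.92 ± 0.989 in ha and 5.90 ± 0.170 in EF.

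The counts of the 3 gene lists below stand beside 19.8% of all tested genes called in EFPrx1 against WT, 42.6% in ha against EF, 6.95% in hr against EF and 39.4% in hr against ha. Other matricellular genes, a list of 22 relatives such as fibulins, CCN proteins and SMOC proteins, were split in experiment 1. Of 17 tested in EFPrx1 against WT, 3 rose, 6 fell and 8 did not pass, with a median of -0.50 on the log2 scale. Sparcl1, the closest relative of SPARC, rose by 3.64 ± 0.66 (SE, edgeR adjusted p = 0.0104), where Sparc itself fell. Fbln2, a fibulin of basement membranes and elastic fibres, fell by 7.03 ± 0.78 (SE, edgeR adjusted p = 0.00217). Comp, the cartilage thrombospondin of the same pentameric branch as Thbs4, fell by 6.94 ± 1.08 (SE, edgeR adjusted p = 0.00618), and Ccn5, a CCN protein without the usual carboxy-terminal domain, fell by 5.63 ± 1.06 (SE, edgeR adjusted p = 0.0116). The 3 increases all lost their calls without WT 234 and left 1 call without WT 237, EFPrx1 225 or EFPrx1 229, and 3 decreases were called without WT 234, EFPrx1 221 or EFPrx1 229.

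In ha against EF, 8 of 14 tested relatives rose, 0 fell and 6 did not pass, with a median of 1.77. Fbln5, an elastic fibre protein, rose by 3.05 ± 0.12 (SE, edgeR adjusted p = 1.53e-05). Tgfbi, a periostin relative with the same fasciclin domains, rose (edgeR adjusted p = 0.000387), with 1 count in EF and a ratio of counts per total between 176 and 38902. Ccn5 rose by 6.05 ± 0.58 (SE, edgeR adjusted p = 0.000412) and Smoc2, a SPARC-related calcium-binding protein, by 5.31 ± 0.59 (SE, edgeR adjusted p = 0.00064). Without EF 1 or EF 2, or with near-identical libraries summed, 5 relatives were called higher.

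In hr against EF, 4 of 14 relatives rose, 0 fell and 10 did not pass, with a median of 0.27. Tgfbi rose here too (edgeR adjusted p = 0.0158), with a ratio between 19.8 and 4417, where Postn, its relative, was close to 0. Fbln5 rose by 0.64 ± 0.10 (SE, edgeR adjusted p = 0.0158), Fbln1 by 1.81 ± 0.38 (SE, edgeR adjusted p = 0.0362) and Fbln2 by 1.24 ± 0.29 (SE, edgeR adjusted p = 0.0468). All 4 calls were lost without EF 1 or EF 2, and 2 relatives were called higher without hr 1-2, hr 2-1 or hr 2-2. In hr against ha, 0 rose, 7 fell and 7 did not pass, with a median of -1.73, and Ccn5 fell by 8.17 ± 0.52 (SE, edgeR adjusted p = 6.74e-05), Smoc2 fell by 6.40 ± 0.48 (SE, edgeR adjusted p = 0.000122), Tgfbi by 3.20 ± 0.41 (SE, edgeR adjusted p = 0.00112) and Fbln5 by 2.41 ± 0.09 (SE, edgeR adjusted p = 7.6e-06).

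The receptors and binding partners of these proteins, a list of 18 genes called receptor genes here, included called genes of both directions in experiment 1. The list held integrin chains, syndecans, scavenger receptors, Cd47, Lrp1 and Calr. Of 17 tested in EFPrx1 against WT, 1 rose, 5 fell and 11 did not pass, with a median of -0.75. Itga8, an integrin chain that binds fibronectin and tenascin-C, rose by 3.84 ± 0.41 (SE, edgeR adjusted p = 0.00199). Stab1, a scavenger receptor of macrophages that takes up SPARC, fell by 7.78 ± 0.62 (SE, edgeR adjusted p = 0.000844). Cd36, a thrombospondin receptor, fell by 4.68 ± 0.71 (SE, edgeR adjusted p = 0.00587) and Itga9, an integrin chain that binds tenascin-C, by 2.40 ± 0.39 (SE, edgeR adjusted p = 0.00686). Hematopoietic markers were also lower in these libraries, at 55.8 to 538 CPM in EFPrx1 against 11837 to 31821 CPM in WT, and their part in the receptor values was not tested.

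In ha against EF, 5 of 15 receptor genes rose, 1 fell and 9 did not pass, with a median of 0.25. This share is near the 42.6% called over all genes tested. Itga8 rose by 7.05 ± 0.70 (SE, edgeR adjusted p = 0.000442), Itgb5 by 2.07 ± 0.32 (SE, edgeR adjusted p = 0.00237), and Itga9, at 36 counts in ha and 0 in EF, was at least 9.31-fold higher against a floor of 3 counts over the group (edgeR adjusted p = 0.00646). Scarb1, a lipoprotein receptor, fell by 1.66 ± 0.26 (SE, edgeR adjusted p = 0.00234). Without EF 1 or EF 2, 3 receptor genes were called higher, and with near-identical libraries summed 1 was. In hr against EF edgeR called 0 of 15, with 3 at an unadjusted p under 0.05 (3641 of all 13998 genes tested), 1 called by DESeq2 and 0 by limma-voom. In hr against ha, 1 rose, 6 fell and 8 did not pass, with a median of -0.38. Itga8 fell by 6.45 ± 0.49 (SE, edgeR adjusted p = 0.000128), Itgb5 by 2.76 ± 0.26 (SE, edgeR adjusted p = 0.000316) and the syndecan gene Sdc1 by 0.53 ± 0.08 (SE, edgeR adjusted p = 0.00228), while Scarb1 rose by 1.31 ± 0.23 (SE, edgeR adjusted p = 0.00406). With near-identical libraries summed 3 receptor genes were called lower and 1 higher.

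A list of 19 genes that act upstream of or beside several members was tested in full in both experiments. It covered TGF-beta signalling, matrix assembly and the transcription regulator genes Srf, Mrtfa and Mrtfb. In EFPrx1 against WT 7 rose (Srf and Mrtfb among them), 3 fell and 9 did not pass, with a median of 0.38. The TGF-beta ligand genes diverged, with Tgfb2 higher by 3.73 ± 0.38 (SE, edgeR adjusted p = 0.00179), Tgfb3 higher by 1.63 ± 0.33 (SE, edgeR adjusted p = 0.0153), while Tgfb1 fell by 2.35 ± 0.23 (SE, edgeR adjusted p = 0.00169). Fbn1, the fibrillin gene, fell by 3.66 ± 0.66 (SE, edgeR adjusted p = 0.0101). The count of increases was 3 without EFPrx1 221 or EFPrx1 229, 2 without WT 234 and 1 without WT 237, and that of decreases was 5 without EFPrx1 225.

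In ha against EF 10 of the 19 rose, 2 fell and 7 did not pass, with a median of 0.52, and without EF 1 both decreases lost their calls. With near-identical libraries summed 4 were called higher in ha against EF and 3 lower in hr against ha. Tgm2, a transglutaminase that cross-links fibronectin, rose by 2.10 ± 0.18 (SE, edgeR adjusted p = 0.000307). Bmp1, a procollagen protease, rose by 2.21 ± 0.20 (SE, edgeR adjusted p = 0.00034), Fbn1 by 2.26 ± 0.23 (SE, edgeR adjusted p = 0.000511) and Col1a2, a collagen I chain, by 1.26 ± 0.14 (SE, edgeR adjusted p = 0.000581). In hr against EF 2 rose, 1 fell and 16 did not pass, with a median of 0.06. Tgm2 rose by 1.29 ± 0.16 (SE, edgeR adjusted p = 0.00956) and Bmp1 by 0.74 ± 0.18 (SE, edgeR adjusted p = 0.049), and Fbn1 fell by 1.86 ± 0.19 (SE, edgeR adjusted p = 0.00638). These 3 calls were lost without EF 1 or EF 2, and 1 increase was called without any of the 4 hr libraries in turn. In hr against ha 1 rose, 11 fell and 7 did not pass, with a median of -0.44, and Fbn1 fell by 4.12 ± 0.19 (SE, edgeR adjusted p = 2.59e-05), Tgfb2 fell by 2.92 ± 0.26 (SE, edgeR adjusted p = 0.000245), Col1a2 by 1.20 ± 0.11 (SE, edgeR adjusted p = 0.000291) and Bmp1 by 1.48 ± 0.16 (SE, edgeR adjusted p = 0.000571).

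**Figure D4:**
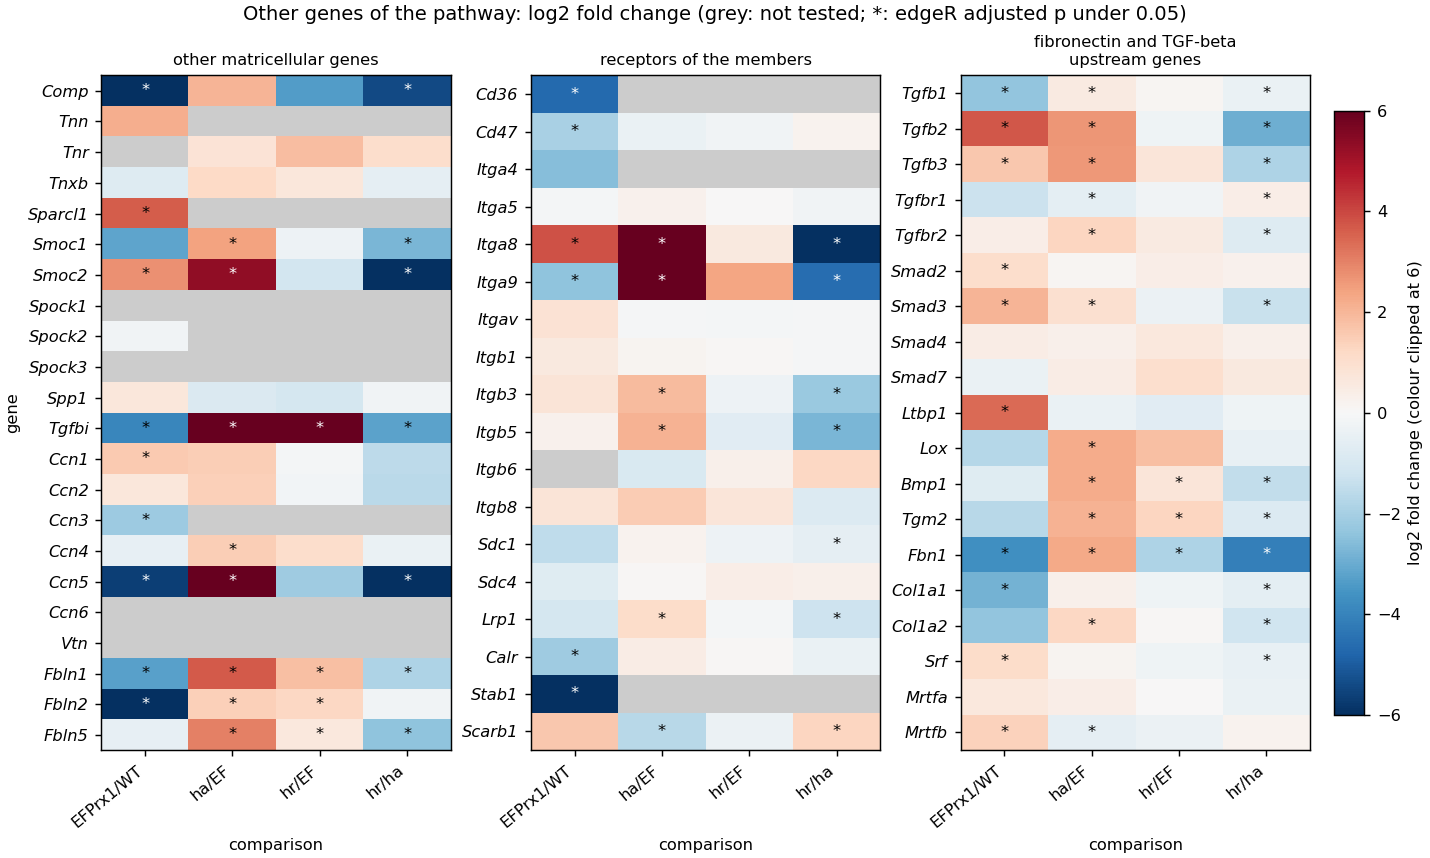
Log2 fold changes of 22 other matricellular genes, 18 receptor genes and 19 upstream genes (TGF-beta signalling, matrix assembly, Srf, Mrtfa and Mrtfb) in the 4 comparisons, as a colour scale, with an asterisk on called genes and untested genes in grey. Most called relatives lie above 0 in ha against EF (8 higher, 0 lower) and below 0 in hr against ha (0 higher, 7 lower).

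Profiles over the 15 libraries were compared with all 13094 genes tested in both experiments by the root mean square difference of log2(CPM + 1), centred on each experiment's mean. Postn was nearest to Igf1, the IGF-1 gene, at 1.03, and to the matrix proteoglycan gene Prelp at 1.06. Thbs1 was nearest to Frzb, a secreted Wnt antagonist gene, at 0.48, and to Setbp1 at 0.71. Thbs2 was nearest to Pdgfrb, a receptor gene of mesenchymal cells, at 0.32, and to Rbpms at 0.45.

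Tnc was nearest to Arhgap24 and March3, at 0.91 each, and Fn1 to the endothelin-converting enzyme gene Ece1 at 0.37 and the pseudogene Tmem181b-ps at 0.42. Sparc was nearest to Ifnar2 at 0.20 and Lrrc27 at 0.22, and Thbs3 to Gpr155 at 0.17 and Dnajc1 at 0.18. The small distances of Sparc and Thbs3 go with their small variation over libraries, whose own root mean square deviations were 0.71 and 0.42, against 2.99 for Postn. None of these 7 genes had another of them as its nearest gene, and the closest pairing among them, Sparc with Thbs3, stood at 0.74.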

How the data were processed

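The deposited table held the authors' expected counts (RSEM's read estimates per gene, some of them fractional) for 15 libraries. Per the submitters' processing notes, STAR, RSEM and GRCm38.p6 were used; no source used here gives their versions, the annotation release or the use of strand. RSEM divides reads between similar copies. Values were rounded (8.27% were not whole). Low genes were filtered by edgeR's filterByExpr (minimum count 10) and libraries were TMM-scaled. Groups were compared by edgeR's two-sided quasi-likelihood test (robust), adjusted by Benjamini-Hochberg over all genes tested, with a call at an adjusted p under 0.05. Experiment 1 (7 libraries) and experiment 2 (8 libraries) were fitted separately, so 3 groups shared a spread estimate in experiment 2. The tools were edgeR 4.0.16, DESeq2 1.42.0 and limma 3.58.1 in R 4.3.3. The edgeR test was run on simulated independent libraries with the same spread for every gene. These libraries are not like that, so the run does not cover error rates here. Positions and exon lengths are from GENCODE on GRCm38 and promoter sequences from RefSeq (GRCm38.p6).

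The 8 genes, the lists of relatives, receptors and upstream genes, the markers and the tests were chosen with earlier results of these data known. All 8 genes were described, up to 4 called genes of each list by p-value, and the 2 nearest profiles per gene. Alternatives were other scalings, filters, tools and groupings, a replicate block and leaving out libraries. Binomial intervals and the floor of 3 counts cover counting error only.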

Additional observations from a re-analysis of the deposited data

Results flagged for a closer look

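Among the 4 EFPrx1 libraries, Postn in EFPrx1 225 lay far above the others, at 1109.6 CPM against 3.26 to 58.5 CPM. Thbs4 in EFPrx1 229 stood apart from 3 libraries at 0, at 0.0348 CPM, which is 1 count. These are 2 of 16 groups of 4 libraries looked at in this way. Chance sets apart about 1 in 20 groups of independent libraries, but 8 of the 16 were hr groups, whose near-identical pairs keep such a gap small, and a single count among zeros stands apart by construction, so that rate does not apply to these groups.

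For 3 genes the hr 1 libraries lay on one side of EF and the hr 2 libraries on the other, a difference that was not tested. On the log2 scale, hr 1 minus hr 2 was -1.09 for Fn1 (5864 CPM in hr 1 and 12480.2 CPM in hr 2, against 9831 CPM in EF). It was 0.77 for Thbs3 (33.3 CPM in hr 1 and 19.5 CPM in hr 2, against 28.4 CPM in EF) and 0.79 for Sparc (1638 CPM in hr 1 and 948 CPM in hr 2, against 1391 CPM in EF).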

How the results depend on the processing

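Over the alternatives for the 8 genes, 391 results kept direction and call, 16 lost and 12 gained a call, and 13 turned sign without a call; where no cause is named, the cause was not tested. DESeq2 called 4598 genes in EFPrx1 against WT (2887 in edgeR) and 1973 in hr against EF (973 in edgeR), where it called 1 member (0 in edgeR). Leaving out a library gave 1219 (without WT 237) to 5087 (without WT 202) called genes and 3 to 5 members in EFPrx1 against WT, with 1275 without WT 234, 1580 without EFPrx1 229 and 1673 without EFPrx1 221. It gave 3070 (without EF 1; 3106 without EF 2) to 5481 genes and 3 to 4 members in ha against EF (5961 genes and 4 members in full), and 4515 to 5123 genes and 4 to 5 members in hr against ha. In hr against EF it gave 0 to 379 genes and 0 members, with 332 to 379 without an hr library; edgeR called 0 without EF 1 (1918 at an unadjusted p under 0.05) and 0 without EF 2 (1888).

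Differences between libraries with last title numbers 1 and 2 correlated at -0.24 to 0.035 across EF, ha, hr 1 and hr 2. The EF and hr differences were little more than sampling noise, so this could not decide whether title numbers pair the libraries. With the last title number as a replicate block 322 genes were called in hr against EF. The call of Fn1 in hr against ha was then lost (-1.21, edgeR adjusted p = 0.0502). The 2 groups alone gave 1927 genes and 1 member in hr against EF. Summing near-identical libraries, which leaves fewer samples, gave 736 genes and 1 member in ha against EF, 0 genes in hr against EF (797 at an unadjusted p under 0.05) and 1272 genes and 3 members in hr against ha. Added after the data were seen, hr 1 alone against EF gave 2221 genes and 1 member and hr 2 alone 2074 genes and 2 members.

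Signs turned for genes that were not called. Without a library, EFPrx1 against WT ran from -1.10 to 0.41 for Fn1 and from -0.20 to 0.63 for Thbs3, and hr against EF from -0.285 to 0.066 for Fn1, from -0.241 to 0.0193 for Sparc and from -0.240 to 0.0245 for Thbs3. With hr 1 alone Sparc was 0.23 and Thbs3 0.22, and with hr 2 alone Fn1 was 0.37.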

Other observations

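The title number 221 occurs in both experiments, as EFPrx1 221 in experiment 1 and in both EF libraries of experiment 2. The labels do not say whether these are the same cells, the flowcells differ, and the values are set side by side without a test. In CPM of the library total, Thbs1 stood at 16594 in EFPrx1 221, against 157 and 154 in EF 1 and 2. Tnc stood at 529 in EFPrx1 221, against 0.357 and 0.397 in EF 1 and 2, while Fn1 stood at 12075, against 9831 and 9845. In the same order, Sparc stood at 1481, against 1389 and 1395, and Thbs2 at 143, against 137 and 129. Thbs3 stood at 43.7, against 29.0 and 27.9, Postn at 3.55, against 0.179 and 0.715, and Thbs4 at 0, against 0.0893 and 0.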
